A study of Homo sapiens with 4 samples.

Results

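The 10 keratin genes described here, 6 of type II (KRT5, KRT6A, KRT7, KRT8, KRT80 and KRT81) and 4 of type I (KRT15, KRT17, KRT18 and KRT19), were chosen by name as a set of simple and stratified epithelial keratins, and all 10 were found among the 60558 gene identifiers of each library. RNA from A549 and HCC827, established human cell lines of lung adenocarcinoma (LAD), was sequenced after each line had been given either myr-AKT1 or a control vector. Myr-AKT1 is an AKT1 kinase that carries a myristoylation signal, which holds it at the membrane and keeps it active. The 4 groups (vector and myr-AKT1 cells of A549, and the same of HCC827) had 1 library each, so differences within a line were not checked by replicates. Whether the cells of a group were 1 clone or a mixed population is not given in the sources used here.

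Keratins are the intermediate filament proteins of epithelial cells, and a filament forms only from a type I (acidic) keratin together with a type II (basic) keratin. KRT8 and KRT18 are the main pair of simple epithelia, KRT7 and KRT19 are further type II and type I keratins of glands and ducts, and glandular lung tumors commonly hold all of these. KRT5 and KRT15 belong to the basal layer of stratified epithelia, KRT6A and KRT17 appear in stratified epithelium that is wounded or dividing, and KRT81 is a keratin of hair. KRT80 is an epithelial type II keratin that is less well described.

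In GRCh38, the 6 type II genes and KRT18 lie in the keratin cluster of chromosome 12, and KRT15, KRT17 and KRT19 lie in the cluster of chromosome 17. KRT18, the type I gene among the type II genes, is on the plus strand at chr12:52948871-52952906, and the annotated KRT8 gene, on the minus strand at chr12:52897187-52949954, runs over its start.

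The deposited value of a gene, called the normalized count here, is its reads over a size factor that was set within the pair of libraries of a line, so that normalized counts compare within a line and RPKM, below, between lines. The libraries held 16322183 to 33530317 reads. AKT1 itself was higher in both myr-AKT1 libraries, at 6297 against 4243 normalized counts in A549 and 4806 against 2175 in HCC827. The 5 epithelial markers EPCAM, CDH1, CLDN4, CLDN7 and ESRP1 had reads in every library and summed to 75.1 reads per kilobase of exon per 1000000 reads (RPKM) in A549-myr-AKT1 and 30.6 in A549-vector, and to 636 and 529 in the HCC827 libraries. The 5 fibroblast markers summed to 4.89 and 0.504 RPKM in A549-myr-AKT1 and A549-vector and to at most 0.0729 in HCC827, the 4 endothelial markers to between 0.0626 and 1.36, and the 4 blood markers to 16.5 in A549-myr-AKT1 and to between 0.457 and 2.58 in the others, mostly from CD14, with CD3E at 0 reads in all 4 libraries. PTPRC, the pan-leukocyte marker, had at most 7 reads. All 4 sums were higher with myr-AKT1 than with vector in each line, and their part in the keratin differences was not tested.

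The keratin reads of each library came mostly from a few genes, and these were not the same in the lines. The 10 keratins took 0.605% of all A549-myr-AKT1 reads and 0.737% of A549-vector reads, and in HCC827 they took 0.289% with myr-AKT1 and 0.633% with vector. They held between 98.7% and 99.8% of the reads of all 55 protein-coding keratin genes. KRT8 and KRT18 together took 0.449% and 0.571% of all reads in A549-myr-AKT1 and A549-vector, and 0.122% (95% Clopper-Pearson interval 0.121 to 0.124) against 0.398% (0.396 to 0.400) in the HCC827 libraries in the same order. The keratin share was lower with myr-AKT1 in both lines, by far more in HCC827. In RNA from whole cultures, fewer cells that express a gene and less of its RNA per cell cannot be told apart.

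Compared per length in RPKM over all annotated exons, KRT18 was the highest keratin in A549, at 739 RPKM in A549-myr-AKT1 and 950 in A549-vector, and KRT19 was the highest in HCC827, at 417 and 662 RPKM in HCC827-myr-AKT1 and HCC827-vector. In A549-vector KRT18 was followed by KRT81 (448 RPKM), KRT8 (406) and KRT7 (188), and in A549-myr-AKT1 by KRT8 (322), KRT81 (292) and KRT7 (224). In HCC827-vector KRT19 was followed by KRT18 (587), KRT8 (317) and KRT7 (164), and in HCC827-myr-AKT1 by KRT18 (184), KRT7 (136) and KRT8 (95.7), so that with these lengths KRT8 and KRT7 stood in the opposite order in the 2 HCC827 libraries. KRT80, KRT15 and KRT6A were lower, between 0.163 and 19.5 RPKM in all libraries, and KRT17 and KRT5 were at or below 0.348 RPKM throughout. Neighbors in this order that did not differ beyond counting error were KRT6A and KRT15 in A549-myr-AKT1, KRT17 and KRT5 in A549-vector, KRT17 and KRT81 in HCC827-myr-AKT1, and KRT81, KRT5 and KRT17 in HCC827-vector.

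The order among the top keratins depends on the length each gene is given, because the annotated exons of KRT8 cover 6881 bases and its MANE Select transcript, the representative transcript of the annotation, has 1784. With MANE Select lengths KRT18 was the highest keratin in HCC827-vector (1275 RPKM), followed by KRT8 (1222) and KRT19 (1113), and in HCC827-myr-AKT1 KRT8 (369) stayed above KRT7 (334). Ratios of 1 gene between libraries do not use the length.

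**Figure D1:**
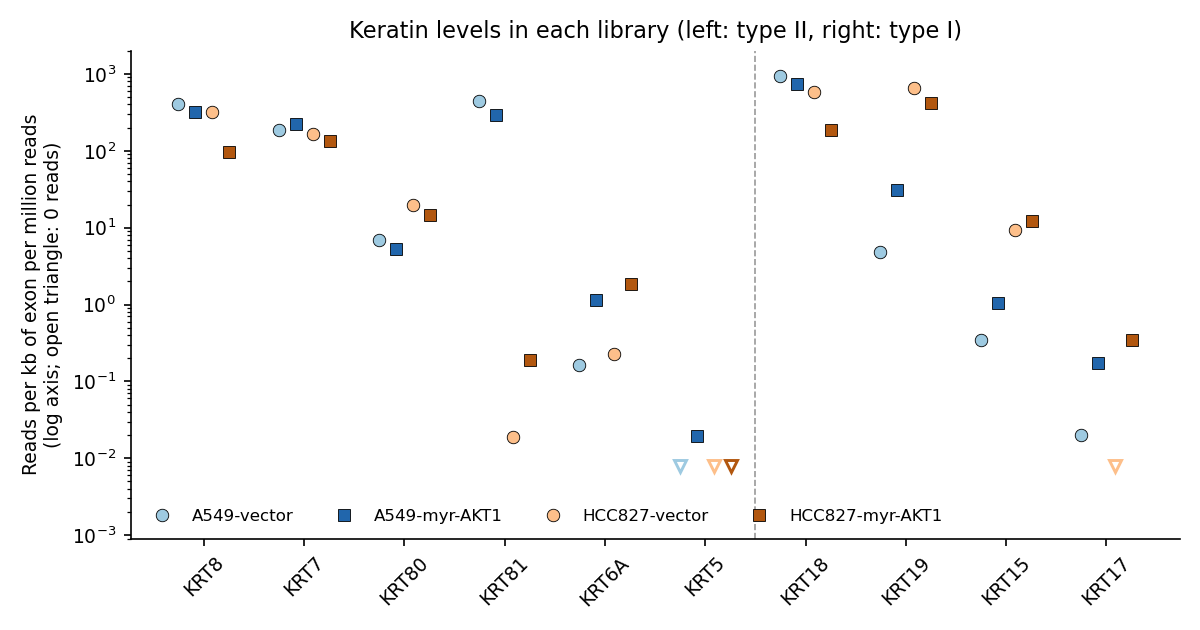
Level of each of the 10 keratins in each of the 4 libraries, in RPKM on a log axis, with type II keratins on the left of the dashed line and type I on the right; each point is 1 library and an open triangle marks 0 reads. KRT8, KRT7 and KRT18 lie between 95.7 and 950 in every library, whereas KRT81 is high in the A549 libraries alone and KRT19 is high in both HCC827 libraries.

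Before myr-AKT1, the lines differed most in KRT81, KRT19 and KRT15. For this comparison of A549-vector with HCC827-vector the reads were scaled by size factors over all 4 libraries. KRT81, the hair keratin, had 21104 normalized counts (28964 reads) in A549-vector and 0.884 (1 read) in HCC827-vector, a log2 ratio of 14.54 with a 95% counting interval of 12.07 to 19.85. KRT19 had 277 and 37348 normalized counts, a log2 ratio of -7.08 (-7.23 to -6.93), and KRT15 had 50.3 and 1363, a log2 ratio of -4.76 (-5.13 to -4.41). Past a log2 ratio of 2 stood 1 of 8 members that had at least 20 reads in the pair on the higher side (background 11.7% of 19237 genes) and 2 of 8 on the lower side (10.5%). Past 1 there were 1 (background 21.7%) and 3 (19.7%), the added member being KRT80 at -1.48. KRT8 (0.38), KRT18 (0.71), KRT7 (0.22) and KRT6A (-0.45, interval -1.52 to 0.61) differed less between the vector libraries. Counting intervals here and below leave out the spread between cultures, which these data cannot give.

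The first question of the design was how the keratins differed between myr-AKT1 and vector within each line. KRT8 and KRT18 were lower with myr-AKT1 in both lines, slightly in A549 and about 3.5 and 3.37 times lower in HCC827. KRT6A was higher in both lines, 6.88-fold in A549 and 7.83-fold in HCC827. KRT19 went in opposite directions, 6.28-fold higher in A549 and 1.68 times lower in HCC827. The fold changes are ratios of the deposited values without a pseudocount.

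**Figure D2:**
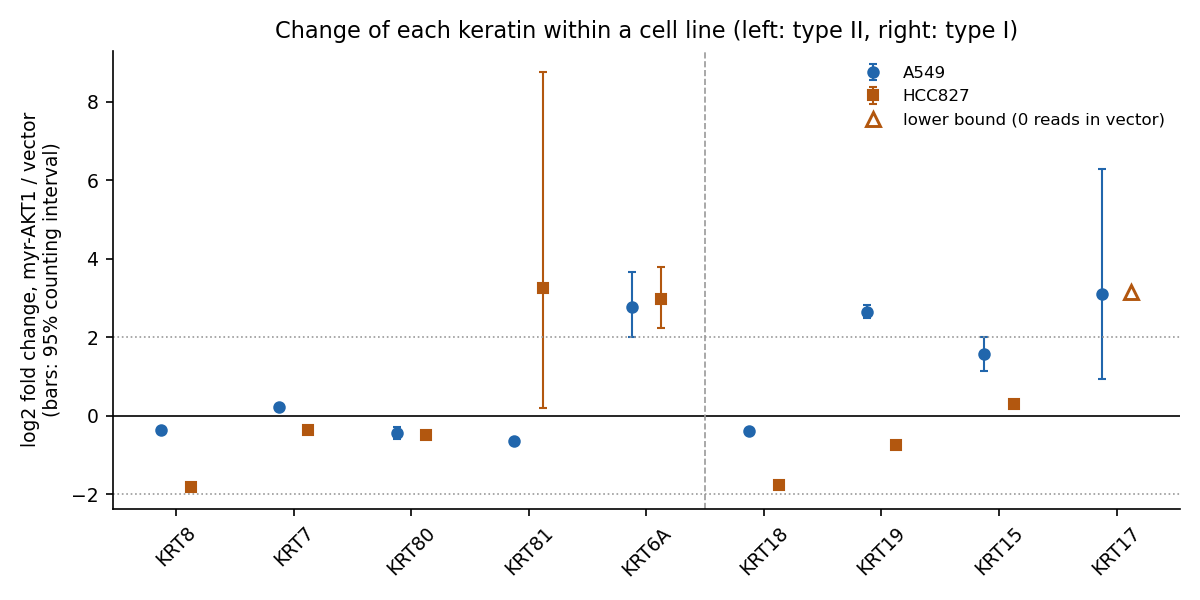
Log2 fold change of 9 keratins, myr-AKT1 over vector, in A549 (circles) and HCC827 (squares), with 95% counting intervals as bars (smaller than the symbol for abundant genes) and dotted lines at 2 and -2; type II is left and type I right of the dashed line. The open triangle, labelled lower bound, is KRT17 in HCC827 with its vector library set at 3 reads and without counting error. KRT5, with 2 reads in all, is not drawn. KRT6A lies above 2 in both lines, and KRT8 and KRT18 lie side by side in each line.

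Among the type II keratins, KRT8 had 63920 normalized counts in A549-myr-AKT1 and 81803 in A549-vector, a log2 fold change of -0.36 (-0.37 to -0.34). In HCC827 it had 13519 and 47313, a log2 fold change of -1.81 (-1.84 to -1.78). Its type I partner KRT18 had 65462 and 85339 in A549, a log2 fold change of -0.38 (-0.40 to -0.37). KRT8 and KRT18 thus differed from vector to nearly the same extent within A549, and the same held in HCC827. There KRT18 had 11592 normalized counts with myr-AKT1 against 39094, or a log2 difference of -1.75 (-1.79 to -1.72). The change in A549 minus that in HCC827 was 1.45 (1.42 to 1.49) for KRT8 and 1.37 (1.34 to 1.41) for KRT18, by counting error only.

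KRT7, the type II keratin of glands and ducts, went the other way in A549. It had 25799 normalized counts in A549-myr-AKT1 and 22060 in A549-vector, a log2 fold change of 0.23 (0.20 to 0.25), and 11157 and 14251 in HCC827, a log2 fold change of -0.35 (-0.39 to -0.32). KRT80 had 655 and 883 in A549 (-0.43, interval -0.58 to -0.28) and 1312 and 1847 in HCC827 (-0.49, -0.60 to -0.39). For KRT80 the difference between the lines' changes was 0.06 (-0.12 to 0.24), which the counting error covers.

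KRT81 was a major keratin of A549 alone. It had 16262 normalized counts in A549-myr-AKT1 and 25293 in A549-vector, a log2 fold change of -0.64 (-0.67 to -0.61). In HCC827 it had 6 reads against 1, a log2 ratio of 3.25 with an interval from 0.20 to 8.77, and it did not reach the 20 reads needed to be counted. KRT81 lies within the span of the annotated KRT86 gene and shares much sequence with it. Of the 50-base windows of the KRT81 transcript, 38.4% also occur in KRT86 transcripts and 44.6% in transcripts of other genes in all. Reads could thus be divided between these genes in the counting.

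KRT6A, the type II keratin of wounded and dividing epithelium, was rare in every library but higher with myr-AKT1 in both lines. Its value was 96.2 normalized counts (84 reads) in A549-myr-AKT1 and 14.0 (16 reads) in A549-vector, or a log2 difference of 2.78 (2.001 to 3.65). In HCC827 it had 112 (89 reads) and 14.3 (18 reads), or a log2 difference of 2.97 (2.23 to 3.79). The lines started from similar levels (0.163 and 0.225 RPKM in A549-vector and HCC827-vector) and reached 1.14 and 1.86 RPKM with myr-AKT1, and the difference between the lines' changes was -0.19 (-1.25 to 0.88). Its near copies KRT6B (12 reads in A549-myr-AKT1, 3 in A549-vector, 3 and 0 in the HCC827 libraries in the same order) and KRT6C (0 in all) had few reads, while 39.2% of its own 50-base windows occur in transcripts of other genes.

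KRT17, its usual type I companion, had 13 reads (14.9 normalized counts) in A549-myr-AKT1 and 2 reads (1.75) in A549-vector, a log2 ratio of 3.09 with a wide interval of 0.95 to 6.28. HCC827 had 17 reads (21.4 normalized counts) with myr-AKT1 against 0. This was 8.97-fold higher when the vector library is set at the 3 reads that a count of 0 allows. The counting interval of this ratio began at 2.71 on the log2 scale. KRT17 shares 18.3% of its 50-base windows with other genes, and its pseudogenes had 8 reads in HCC827-myr-AKT1 against 25 in its vector library. With these added HCC827 had 25 reads in each library, a log2 ratio of 0.66 with an interval that includes 0 (-0.20 to 1.52). Whether reads were divided between KRT17 and its pseudogenes in the counting was not tested. In A549 the pseudogenes had 6 and 0 reads, and the log2 ratio with them was 3.64. The KRT17 levels were too low to enter the counts of members. KRT5, the basal type II keratin, had 2 reads in A549-myr-AKT1 and 0 in the other libraries, which allows up to 0.0895 reads per 1000000 in A549-vector, and in HCC827 up to 0.184 with myr-AKT1 and 0.1098 with vector. KRT14, the usual type I partner of KRT5, had 0 reads in every library.

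KRT15, a type I keratin of basal cells, was at 179 normalized counts (156 reads) in A549-myr-AKT1 and 60.3 (69 reads) in A549-vector, or a log2 difference of 1.57 (1.15 to 1.998). In HCC827 it had 1506 and 1225, a log2 fold change of 0.30 (0.19 to 0.41). It was higher with myr-AKT1 in both lines, by 1.27 (0.85 to 1.69) more on the log2 scale in A549, where its level was lower (0.345 RPKM in A549-vector, 9.46 in HCC827-vector). KRT5, its basal type II companion by tissue, was near 0 beside it in both lines.

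KRT19, the type I keratin of ducts and the smallest keratin of the human family, stood at 2085 normalized counts (1821 reads) in A549-myr-AKT1 and 332 (380 reads) in A549-vector, or a log2 difference of 2.65 (2.49 to 2.82). In HCC827 it had 20025 and 33583, a log2 fold change of -0.75 (-0.77 to -0.72). Its level was lowest in A549-vector (4.85 RPKM), and A549-myr-AKT1 (30.9 RPKM) was still below both HCC827 libraries. The lines' changes differed by 3.40 (3.24 to 3.56), by counting error only, and KRT19 shares just 1.79% of its 50-base windows with other genes.

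Among members with at least 20 reads in the pair, 2 of 8 in A549 (KRT6A and KRT19) were higher past a log2 fold change of 2, where the background over 18819 genes was 5.56%, and 0 were lower past -2 (background 2.98%). In HCC827, 1 of 7 (KRT6A) was higher past 2 (background 4.27% of 17470 genes) and 0 were lower (3.45%). At a log2 fold change of 1, 3 of 8 were higher in A549 (with KRT15; background 14.7%) and 0 lower (10.2%), and in HCC827 1 of 7 was higher (13.5%) and 2 lower, KRT8 and KRT18 (13.1%). The median of the members was -0.07 in A549, beside -0.04 over all genes, and -0.49 in HCC827, beside -0.05. KRT5 and KRT17 in both lines, and KRT81 in HCC827, did not reach 20 reads and are not in these counts. KRT6A, with 16 reads in A549-vector and 18 in HCC827-vector, reached 20 reads in each pair through the myr-AKT1 library.

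The design allowed 1 test, a limma fit over the 4 libraries with the cell line as block and 1 residual degree of freedom, on log2(normalized count + 1). Of the 9 members fitted (all but KRT5), 0 had an adjusted p under 0.05 higher (background 1.29% of 19314 genes) or lower (1.73%) with limma. An unadjusted p under 0.05 was reached by 4 of the 9, and by 18.4% of all genes. With limma, KRT17 had a log2 fold change of 3.51 (SE 0.76, adjusted p = 0.0547) and KRT6A one of 2.79 (SE 0.61, adjusted p = 0.0561), both higher in 2 of 2 lines by the reads of the gene alone. KRT8 had -1.08 (SE 0.39, adjusted p = 0.198) and KRT18 -1.07 (SE 0.38, adjusted p = 0.190) in the same limma fit, lower in 2 of 2 lines. The other 5 had adjusted p-values from 0.277 to 0.937 with limma. By edgeR's quasi-likelihood test 0 members were called (background 1.01% of genes higher and 1.18% lower) and 5 of 9 had an unadjusted p under 0.05 (16.7% of all genes). DESeq2 called KRT6A alone (adjusted p = 0.0172), with a background of 3.22% of genes higher and 2.68% lower. It gave KRT17 no adjusted p, so KRT17 could not be called by it.

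Partner keratins were then set side by side as ratios within a library, which do not depend on how libraries are scaled. The KRT8 to KRT18 ratio per kilobase of exon was 0.436 in A549-myr-AKT1 and 0.428 in A549-vector, and in HCC827 it was 0.520 with myr-AKT1 and 0.540 with vector. The log2 ratio differed between myr-AKT1 and vector by 0.03 (0.01 to 0.05) in A549 and by -0.05 (-0.10 to -0.01) in HCC827, so the pair kept nearly the same proportion although both members were over 3 times lower in HCC827-myr-AKT1. Overlap bears on these counts: 23.9% of the 50-base windows of the KRT18 transcript also lie in KRT8 transcripts that run over it on the opposite strand, 52.8% occur in other genes in all, KRT18 pseudogenes among them, and 39.2% of the KRT8 windows occur in other genes, chiefly KRT8 pseudogenes. The kit marks strand, and the strand setting of the counting is not given in the sources used here.

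Ratios with KRT7 and KRT19 differed more. KRT7 to KRT18 was 0.302 and 0.198 per kilobase in A549-myr-AKT1 and A549-vector, a difference in log2 of 0.61 (0.58 to 0.64), and 0.739 and 0.280 in HCC827, a difference of 1.401 (1.35 to 1.45). KRT7 thus gained on KRT18 in both lines, although its own level was lower with myr-AKT1 in HCC827. KRT8 to KRT19 was 10.4 and 83.7 in A549 and 0.229 and 0.478 in HCC827, a log2 difference of -3.01 (-3.17 to -2.85) and -1.06 (-1.10 to -1.02). KRT7 to KRT19 was 7.23 and 38.8 in A549, a difference of -2.43 (-2.59 to -2.26), and 0.325 and 0.248 in HCC827, a difference of 0.39 (0.35 to 0.44). Relative to KRT19, KRT8 was lower with myr-AKT1 in both lines, while KRT7 was lower in A549 and higher in HCC827.

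**Figure D3:**
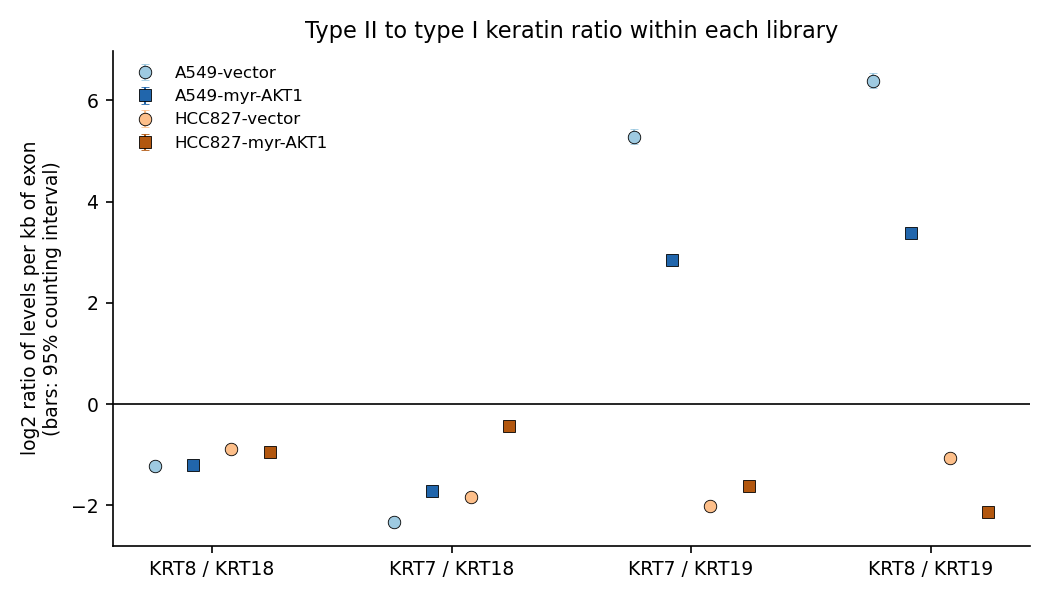
Log2 ratio of a type II to a type I keratin per kilobase of exon within each library, with 95% counting intervals as bars that are mostly smaller than the symbols. The KRT8 to KRT18 ratio lies between -1.23 and -0.89 in all 4 libraries, whereas with these exon lengths the ratios to KRT19 separate the A549 libraries (above 0) from the HCC827 libraries (below 0).

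KRT6A to KRT17 could be compared in A549 alone, where the log2 ratio was 2.73 in A549-myr-AKT1 and 3.03 in A549-vector, a difference of -0.31 (-2.59 to 1.97) that counting error covers. Summed over the members, type II stood to type I at 1.09 and 1.10 per kilobase in A549-myr-AKT1 and A549-vector and at 0.404 and 0.398 in HCC827-myr-AKT1 and HCC827-vector. The balance of the types was thus close between the libraries of a line and different between the lines. With MANE Select lengths the same sums gave 1.26 and 1.20 in A549 and 0.631 and 0.681 in HCC827.

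The make-up of each type shifted within these sums. Of the type I reads, KRT19 held 3.08% (95% Clopper-Pearson interval 2.94 to 3.22) in A549-myr-AKT1 and 0.387% (0.349 to 0.428) in A549-vector, and 60.4% and 45.4% in HCC827-myr-AKT1 and HCC827-vector. KRT18 held 96.6% and 99.5% in A549 and 35.0% and 52.9% in HCC827. KRT19 thus had a larger part of the type I reads with myr-AKT1 in both lines, although its level was lower in HCC827-myr-AKT1 than in its vector library. Of the type II reads, KRT8 held 59.9% and 62.9% in A549 and 51.8% and 74.6% in HCC827, KRT7 held 24.2% and 16.96% in A549 and 42.7% and 22.5% in HCC827, and KRT81 held 15.2% and 19.4% in A549. KRT7 had a larger part of the type II reads with myr-AKT1 in both lines.

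**Figure D4:**
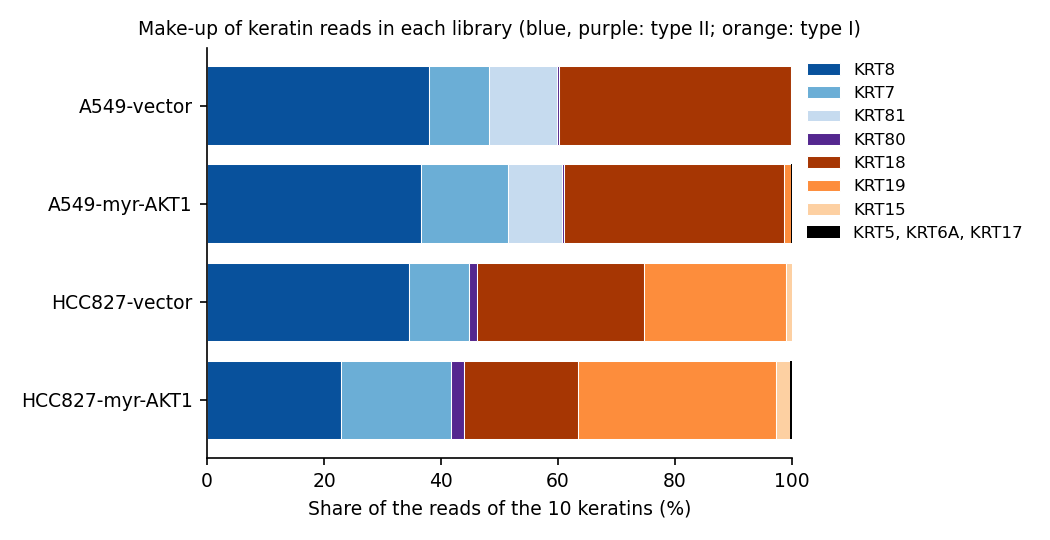
Share of the reads of the 10 keratins held by each keratin in each library, in percent, with type II keratins in blue and purple and type I keratins in orange; KRT5, KRT6A and KRT17 together are black and thin. KRT8 and KRT18 make up most of both A549 bars, and KRT19 and KRT7 take a wider part of the HCC827-myr-AKT1 bar than of the HCC827-vector bar.

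Beyond the 10 members, 6 of the 45 other protein-coding keratin genes reached 100 reads in a library, and 16 had 0 reads in all of them. KRT20, the type I keratin of intestinal and urothelial surface cells, was higher with myr-AKT1 in both lines, at 102 against 9.61 normalized counts in A549 (log2 fold change 3.41, interval 2.50 to 4.46) and 390 against 90.6 in HCC827 (2.11, 1.79 to 2.43). KRT10, the type I keratin of differentiating epidermis, was at 470 and 381 in A549 (0.30, 0.10 to 0.50) and 254 and 137 in HCC827 (0.89, 0.59 to 1.19). KRT1, its type II partner in epidermis, had 0 reads in all 4 libraries. KRT4, a type II keratin of mucosal squamous epithelium, was at 166 and 141 in A549 and 44.04 and 31.0 in HCC827, differences that counting error covers in both lines.

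The hair keratins beside KRT81 on chromosome 12 were also A549 genes. KRT86 had 665 and 774 normalized counts in A549-myr-AKT1 and A549-vector (log2 fold change -0.22, -0.37 to -0.07) and 15 reads in each HCC827 library. KRT83 had 65.3 and 109 in A549 (-0.74, -1.22 to -0.28) and 2 and 0 reads in HCC827. The pseudogene KRT87P had 111 and 169 in A549 (-0.61, -0.98 to -0.25) and 0 reads in HCC827. All 4 genes of this stretch, KRT81 included, were lower in A549-myr-AKT1 than in A549-vector, beside a median of -0.04 over all genes. They share sequence, and the annotated KRT86 gene (chr12:52249300-52309163) spans KRT81 and KRT87P, so they may not be separate measurements. KRT222, a keratin-like type I gene, had 168 and 55.02 in A549 (1.61, 1.18 to 2.06) and 0 reads in HCC827.

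Among 150 keratin pseudogene identifiers, 8 reached 100 reads. KRT16P1 (chr17:18439985-18442734) had 250 reads in HCC827-myr-AKT1 against 8261 in HCC827-vector, a log2 fold change of -4.38 (-4.57 to -4.20), and 0 reads in both A549 libraries. KRT16P3 had 28 and 659 reads in HCC827 (-3.89, -4.49 to -3.35) and KRT16P2 8 and 105 (-3.05, -4.30 to -2.02), with 0 to 4 reads in A549. KRT16, their parent gene by name and a type I partner of KRT6A, itself had 1 read in each A549 library and 12 and 14 reads in the HCC827 libraries. Of the 50-base windows of KRT16, 21.8% occur in transcripts of other genes, KRT16P3 among them, so reads could be divided between them in the counting. Pseudogenes of KRT8 and KRT18 (KRT8P12, KRT8P4, KRT8P33 and KRT18P31 above 100 reads) added little: all KRT8 pseudogenes together had 0.864% and 0.691% of the KRT8 reads in A549-myr-AKT1 and A549-vector and 3.07% and 1.06% in HCC827, and those of KRT18 at most 2.04% of the KRT18 reads.

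**Figure D5:**
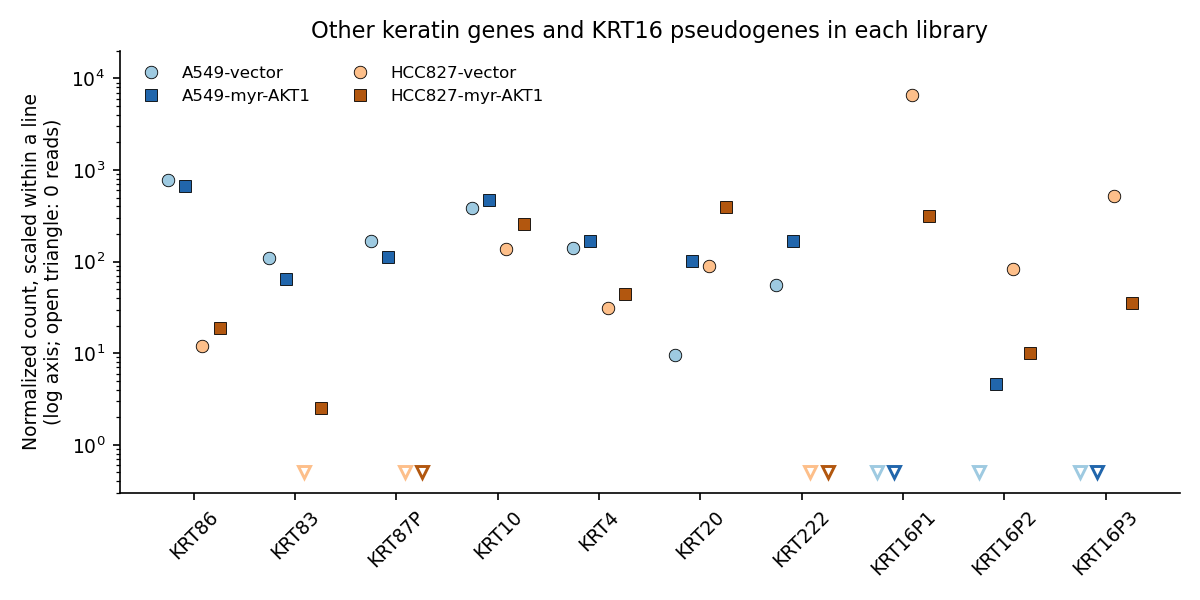
Normalized counts, scaled within each line, of the 6 other keratin genes that reached 100 reads, of KRT87P and of 3 KRT16 pseudogenes in each library, on a log axis, with open triangles for 0 reads. KRT20 is higher with myr-AKT1 in both lines, and the KRT16 pseudogenes are low or at 0 in A549 and lower in HCC827-myr-AKT1 than in HCC827-vector.

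The proteins that anchor, bind or accompany keratins were counted from 4 lists. Of 16 genes for desmosomal proteins, plakins and the integrin subunits of hemidesmosomes, which tie keratin filaments to cell junctions and the basement membrane, 13 had 20 reads in A549 and 0 passed a log2 fold change of 1 in either direction (background 14.7% higher and 10.2% lower; median 0.25). In HCC827 14 had 20 reads, 0 were above 1 (background 13.5%) and 4 were below -1 (background 13.1%; median -0.48). Those 4, named after their values were seen, were DST (-1.89, -1.94 to -1.85) and ITGA6 (-1.67, -1.74 to -1.60), parts of the junction with the basement membrane, and the desmosomal DSC2 (-1.13) and PPL (-1.07). The same genes had 0.30, -0.42, 0.58 and 0.51 in A549. Of 11 keratin-binding, chaperone and turnover proteins all had 20 reads in both lines and 0 passed 1 in either direction, beside the same backgrounds, with medians of -0.18 in A549 and -0.44 in HCC827.

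Of 17 genes of stratification and the cornified envelope, the tough shell of dead epidermal cells, 3 had 20 reads in A549. Of them 1 was above 2 (background 5.56%), SBSN, with 31 reads in A549-myr-AKT1 and 0 in A549-vector. With A549-vector set at 3 reads SBSN was 13.6-fold higher, and its counting interval began at 3.38 on the log2 scale. In HCC827 8 had 20 reads and 3 were above 2 (background 4.27%), S100A7, KLK7 and SPRR2A. S100A7 had 305 against 8 reads (5.92, interval 4.92 to 7.14) and KLK7 had 37 against 6 (3.29, 2.03 to 4.82). SPRR2A had 23 against 0 reads, 12.1-fold higher with vector set at 3 reads (interval from 3.19 on the log2 scale). LORICRIN, FLG and KLK5 had 0 reads in all 4 libraries. IVL, under 20 reads and so not counted, went the other way in HCC827. It had 0 reads with myr-AKT1 against 15 with vector (interval up to -1.18 on the log2 scale). SBSN, also not counted in HCC827, had 7 against 2 reads there. Medians were 0.54 over the 3 genes in A549 and 1.398 over the 8 in HCC827, beside -0.04 and -0.05 over all genes. SBSN and SPRR2A stood above the middle with vector set at 3 reads. The 4 genes above 2 reached 20 reads through the myr-AKT1 library, so neither their counts beside the backgrounds nor the medians can stand for the whole list. TGM1, SPRR3 and DSG1 had intervals in HCC827 that include 0. These genes too were named after their values were seen.

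Of 17 epithelial transcription factors, 14 had 20 reads in A549, with 3 above 2 (background 5.56%) and 1 below -2 (2.98%, median 0.48). In HCC827 16 had 20 reads, with 2 above 2 (4.27%) and 0 below -2 (3.45%, median 0.53). Past 1 in A549 stood 4 higher (background 14.7%) and 2 lower (10.2%). Those 2, named after their values were seen, went the other way in HCC827: GRHL3 (-3.58 in A549, 2.02 in HCC827) and TFAP2C (-1.41 and 0.71). GRHL3 had 25 against 391 reads in A549 and 23 against 9 in HCC827. EHF, an ETS factor of epithelial cells, was the 1 gene of the 4 lists that passed 1 in the same direction in A549 and HCC827 and had 100 reads or more per pair. It had 2778 and 639 normalized counts in A549 (2.12, 1.9998 to 2.24) and 9362 and 4493 in HCC827 (1.06, 1.01 to 1.11). TP63, which in stratified epithelium drives KRT5 and KRT14 and which was also looked up after its values were seen, had 2962 and 675 in A549 (2.13, 2.02 to 2.25) and 182 and 121 in HCC827 (0.59, 0.26 to 0.93), while KRT5 was near 0 and KRT14 at 0 in all of them.

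Among 12565 genes with a mean of at least 100 normalized counts, the profiles most like that of KRT8 over the 4 libraries, by Euclidean distance of centered log2(normalized count + 1), were those of TPR (0.179), CASD1 (0.222) and SMC6 (0.229). KRT18 was 11th in this list, at 0.299. The profiles most like that of KRT18 were those of GLIDR (0.0676), CASC2 (0.0740) and STXBP4 (0.144), and KRT8 was 12th. These distances rest on 4 points that share their libraries and are a description only.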

How the data were processed

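After trimming, the authors mapped reads to hg38 (per the labels) with Bowtie2, which does not split a read over an intron, and counted them per Ensembl gene with HTSeq. The labels name removal of ribosomal RNA and a stranded mRNA kit, and the Methods name selection of polyadenylated RNA and RPKM. The signal the authors deposited equals reads over a library-wide size factor (myr-AKT1 and vector: 0.873 and 1.15 in A549, 0.795 and 1.26 in HCC827). Dividing by the worth of 1 read gave whole reads, within 0.001, for all genes with reads except 1 in each vector library, that of a gene not reported here. Genes were named from GENCODE release 44 (60261 of 60558 identifiers matched), on GRCh38.

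The members and lists were chosen with earlier results of these data known. Named genes were the members, AKT1, keratin genes and pseudogenes with at least 100 reads in a library, list genes past a log2 fold change of 1 in the same direction in both lines and 100 reads or more a pair, and the 3 nearest profiles of KRT8 and KRT18; others are marked. Fold changes have 95% Clopper-Pearson counting intervals and RPKM used the union of exons. Windows shared with other genes were counted on annotated transcripts. Limma (trend, log2(value + 1), filterByExpr, Benjamini-Hochberg) fitted all 4 libraries with cell line as a block, since the libraries of a pair come from the same line. Reads are not independent molecules, so intervals and floors cover counting error only. The limma p-values rest on how far the changes in A549 and HCC827 disagree, moderated by a trend over all genes. Part of that disagreement may be technical. With 1 library per condition, the p-values hold no measure of the spread between cultures of a condition. In simulated counts 200 genes among 19995 were changed by a log2 fold change of 2 or -2, equally in both lines. Of these limma recovered 163 with 0 false calls, edgeR 181 with 7 and DESeq2 122 with 6. Smaller changes, or changes unequal between the lines, were not simulated. Whether these numbers carry over to the 4 libraries, where A549 and HCC827 disagreed for some genes, was not tested. Alternatives were other scalings, filters, pseudocounts, thresholds, lengths, tools and no block. The scripts used Python 3.11.15 with pandas 2.3.3, scipy 1.17.1, matplotlib 3.10.9 and numpy 2.4.6, and R 4.3.3 with DESeq2 1.42.0, edgeR 4.0.16 and limma 3.58.1.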

Additional observations from a re-analysis of the deposited data

Results flagged for a closer look

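In these data 3 keratins had opposite directions in the lines. The log2 fold change of KRT19 was 2.65 in A549 and -0.75 in HCC827. KRT7 had 0.23 in A549 and -0.35 in HCC827. KRT81 had -0.64 in A549 and 3.25 in HCC827, the latter from 6 reads against 1. With 1 library per condition, no test of these line differences over replicates could be run.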

How the results depend on the processing

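Under size factors over all 4 libraries, TMM, total reads, added pseudogene reads and a pseudocount of 1, none of the 17 fold changes with reads in both libraries changed direction. The value of KRT17 in HCC827 with vector set at 3 reads was 3.17 on the log2 scale. It ranged from 3.15 to 4.49 under the scalings and the pseudocount. With pseudogene reads added it was replaced by a ratio of 0.66 (-0.20 to 1.52). Size factors over all 4 libraries shifted the median of all genes in A549 by 0.10 on the log2 scale, so KRT7 ranged from 0.23 to 0.33 and KRT8 from -0.36 to -0.25 there. With at least 1 read in both libraries as the filter, 2 members were higher past 2 in HCC827 (KRT81 added) and 3 in A549 (KRT17 added). With the main filter and a threshold of 1, 2 members were lower in HCC827 (KRT8 and KRT18) and 0 in A549. In the fit, 0 of 9 members were called with limma, edgeR, TMM, a pseudocount of 0.1 and no replicate block, and 1 of 9 with DESeq2. For KRT17 DESeq2 gave no adjusted p. When every gene with a read in some library was fitted, 5 of 10 members were called. Of the 33056 genes in that fit, 1101 were called higher and 894 lower. KRT19, which had opposite directions in the lines, was among the 5. KRT7 turned to 0.031 with DESeq2 and KRT81 to -0.054 with edgeR. Over all genes, limma called 250 higher and 335 lower, DESeq2 621 and 518, edgeR 196 and 228, the wider gene set 1101 and 894, TMM 42 and 96, and a pseudocount of 0.1 or no replicate block 0 and 0 (3184 and 631 genes with an unadjusted p under 0.05). The level ratios depended on gene length: KRT7 to KRT18 in HCC827-myr-AKT1 turned to 0.31 with the longest transcript, and KRT8 to KRT19 in HCC827-vector to 0.13 with the MANE Select length, an alternative chosen after seeing the data. Leaving out 1 library left no residual degree of freedom and so no test. The cause of these changes was not tested. Depth limits KRT5, KRT17 and, in HCC827, KRT81.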
